A study of Mus musculus with 9 samples.

Results

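Colony-stimulating factor and TGF-beta maintenance genes were followed in microglia, the resident macrophages of the brain, from an amyloid mouse model with and without deletion of connexin 43 (Cx43, encoded by Gja1). The 10 genes were taken by symbol from the 18571 genes of the expression table: Csf1, Csf1r, Csf2ra, Csf2rb and Csf2rb2 of the colony-stimulating factor system, and Tgfb1, Tgfbr1, Tgfbr2, Smad3 and Nrros of the TGF-beta system. All 10 passed the filter on low counts, as did 14696 genes of the table.

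Signalling by CSF1 or interleukin 34 through the receptor CSF1R keeps microglia alive, and blocking that receptor depletes them. GM-CSF acts on myeloid cells through an alpha chain that binds the ligand (Csf2ra) and a beta chain that signals (Csf2rb), which the interleukin 3 and interleukin 5 receptors also use. Mice carry a close relative of the beta chain, Csf2rb2, which serves interleukin 3. TGF-beta1 is secreted in a latent form, which NRROS holds on the microglial surface. Once released, it binds the type II receptor TGFBR2, which recruits and activates the type I receptor TGFBR1, and the signal is carried to the nucleus by SMAD3 and its relatives. In mice, loss of this pathway costs microglia much of their homeostatic expression.

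RNA came from 9-month-old C57BL6/j mice, from cortex and hippocampus freed of meninges, and cells were captured on plates with an antibody to CD45, a surface protein of leukocytes. There were 3 groups of 3 libraries: WT, APP/PS1 (mice with transgenes that lead to amyloid deposits), and APP/PS1:Cx3cr1-CreER:Cx43-flox/flox, called Cx43 cKO here. Per the labels, mice of all 3 groups received tamoxifen by gavage at 0.1 mg/g for 5 days at 8 months of age. The labels give Cx3cr1-CreER and the floxed allele for the Cx43 cKO group only, so the recombinase allele and the deletion cannot be told apart. Cx3cr1 is also used by border macrophages and some blood-derived myeloid cells, so the recombinase is not limited to microglia. The labels do not say whether replicate libraries came from separate mice or pools, so the spread between libraries, on which each p-value rests, may be technical.

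Libraries held 18907681 to 19565354 estimated counts and differed little within a group, with a biological coefficient of variation of 3.14%. Gja1 was at 34.0, 31.6 and 35.1 CPM (counts scaled to a common library size) in WT libraries 1 to 3, at 39.7, 37.0 and 42.4 for APP/PS1 and at 27.2, 25.3 and 28.1 for Cx43 cKO. The log2 change from APP/PS1 to Cx43 cKO was -0.56 (edgeR adjusted p = 7.95e-09), and a summed list of 10 astrocyte markers, which was also highest in APP/PS1, was at 478 CPM for WT, 690 for APP/PS1 and 526 for Cx43 cKO. From APP/PS1 to Cx43 cKO, 9 of the 10 markers were called lower and 0 higher, beside 27.7% and 27.3% of all tested genes. Their median log2 change was -0.53. Of the 10 markers, 5 (Aldh1l1, Slc1a3, Gjb6, Sox9 and Fgfr3) had the full group order of Gja1, highest in APP/PS1 and lowest in Cx43 cKO, and the sum was lowest in WT. On TPM, APP/PS1 was below WT for Gja1 (-0.14, not called), Gjb6 and Slc1a3, the last also with library totals. The part of these cells in the Gja1 difference was not tested. Cx3cr1, whose promoter drives the recombinase, was at 1214 ± 25.0 CPM in Cx43 cKO against 2230.1 ± 13.6 in APP/PS1 (SD, n = 3). Ddx3y, a Y-linked gene, was at 204 to 248 CPM in the WT and APP/PS1 libraries and at 0 to 0.104 CPM in the Cx43 cKO libraries, so sex and genotype cannot be told apart in either comparison with Cx43 cKO.

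The labelled cell type was checked against 14 microglial markers, none of which was at 0. Their sum was 21584 CPM for WT, 30991 for APP/PS1 and 25107 for Cx43 cKO. Markers of other leukocytes were present in every group. A list of 12 neutrophil markers summed to 3616 to 3687 CPM for WT, 1423 to 1493 for APP/PS1 and 9293 to 9382 for Cx43 cKO, and 9 monocyte markers to 1616 to 1708, 1120 to 1188 and 1831 to 1898 CPM. In the neutrophil sum, Csf3r alone was at a mean of 687, 541 and 700 CPM in WT, APP/PS1 and Cx43 cKO, and so weighed most in APP/PS1. Nr4a1, which other cells also express, made up much of the monocyte sum, and without it the sum was 624 to 654, 243 to 266 and 935 to 949.8 CPM. In such bulk libraries fewer cells of a type and less RNA per cell cannot be told apart.

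Csf2rb and Csf2rb2 lie side by side on chromosome 15, and their sequences show how far their reads could be separated. Their coding sequences, 2691 and 2637 bases long in GENCODE M21 on GRCm38, were 95.2% identical over 2631 aligned bases, with 15 identical runs of 50 bases or more, and the longest run was 242 bases. The reads were 50 bases long, and of all the distinct 50-base stretches in the annotated transcripts 12.3% of those of Csf2rb and 18.9% of those of Csf2rb2 also occurred in another gene. The stretch shown first below is the same in both genes, at chr15:78348577-78348626 (plus strand) in Csf2rb and chr15:78284822-78284871 (minus strand) in Csf2rb2. The next pair is the 50-base window that differs most, by 12 bases, at chr15:78338898-78338947 in Csf2rb and chr15:78294384-78294433 in Csf2rb2, with the differing bases in capitals.
Csf2rb and Csf2rb2, identical coding stretch: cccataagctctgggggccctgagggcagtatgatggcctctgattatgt
Csf2rb, most different window: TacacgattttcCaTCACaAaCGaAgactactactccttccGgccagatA
Csf2rb2, most different window: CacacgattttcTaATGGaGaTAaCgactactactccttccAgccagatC
The split of shared reads between Csf2rb and Csf2rb2 is therefore uncertain, and how the authors assigned them is not given in the sources used here. For Csf1r, 14.3% of the 50-base stretches were shared with Hmgxb3, a gene on the opposite strand that in GENCODE M21 overlaps its 3′ end by 873 bases. Whether strand was used in counting is not stated, and Hmgxb3 itself was at 38.1 to 47.3 CPM. Among the other 7 genes the shared part was at most 0.77%.

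Promoters were read as the 250 bases before the start in RefSeq (GRCm38.p6). Those of Csf1 and Tgfbr2, which had the largest changes of their systems in APP/PS1 against WT, and that of Csf2rb2, the interleukin 3 receptor beta chain, are shown. Windows were given for 8 of the 10 genes and none is shown for Csf1r or Csf2rb. The windows of Csf1 (chr3:107760470-107760719), Csf2rb2 (chr15:78305722-78305971) and Tgfbr2 (chr9:116175364-116175613), all on the minus strand, are printed 5′ to 3′, with capitals for a match, on either strand, to an NF-kB-type motif in Csf1 and to the PU.1-type letters GAGGAAG in the others.
Csf1: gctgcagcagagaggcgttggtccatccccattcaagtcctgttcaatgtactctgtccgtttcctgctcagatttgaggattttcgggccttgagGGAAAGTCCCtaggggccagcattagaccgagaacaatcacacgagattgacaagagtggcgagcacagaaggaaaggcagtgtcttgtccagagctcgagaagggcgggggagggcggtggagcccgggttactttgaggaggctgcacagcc
Csf2rb2: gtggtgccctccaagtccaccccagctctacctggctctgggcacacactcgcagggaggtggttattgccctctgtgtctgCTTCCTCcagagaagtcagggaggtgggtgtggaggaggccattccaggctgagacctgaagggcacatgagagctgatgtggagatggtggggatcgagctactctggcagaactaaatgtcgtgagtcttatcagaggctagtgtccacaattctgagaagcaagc
Tgfbr2: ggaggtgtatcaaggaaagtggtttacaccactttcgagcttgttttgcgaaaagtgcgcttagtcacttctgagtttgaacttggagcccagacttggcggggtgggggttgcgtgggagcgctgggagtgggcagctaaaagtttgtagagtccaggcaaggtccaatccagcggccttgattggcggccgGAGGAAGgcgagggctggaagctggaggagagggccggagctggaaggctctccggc
The NF-kB-type match of Csf1 began 154 bases before the start, and this motif stood in 0.356% of the 32851 promoter windows of this length. The PU.1-type letters stood in 10.6% of windows. They began 168 bases before the start in Csf2rb2 and 57 bases before it in Tgfbr2. Among the windows not printed they matched at 14 and 8 bases before the start in Csf2ra and at 95 bases in 1 of the 2 Tgfbr1 windows, and the cAMP response element letters TGACGTCA (1.55% of windows) matched in Csf2ra alone. The GC box GGGGCGGGG (10.4% of windows) matched in Csf2ra and Tgfb1. The Smad half-site CAGAC, present in 42.2% of windows, was found in Csf2rb2, Tgfbr2, Nrros and 1 of the 2 Tgfbr1 windows, and neither the Smad palindrome GTCTAGAC (0.167% of windows) nor the AP-1 letters TGANTCA (6.75%) matched in any of the 9 windows of these genes. Each search covered both strands, and a match describes letters only.

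In APP/PS1 against WT the system split: the ligand gene Csf1 rose 2.91-fold while its receptor gene fell, as did the GM-CSF receptor genes Csf2ra and Csf2rb and the interleukin 3 receptor gene Csf2rb2. Of the 10 genes, 3 were called higher (Csf1, Tgfbr2 and Tgfb1) and 6 lower (Csf1r, Csf2ra, Csf2rb, Csf2rb2, Smad3 and Nrros) by edgeR at an adjusted p of 0.05, and Tgfbr1 was not called. That rule called 59.0% of all tested genes, 26.9% higher and 32.0% lower, and the 9 of 10 is to be read against that background. The median log2 change of the 10 was -0.14 and that of all tested genes -0.04. Only Csf1 also passed a 1.5-fold rule, which 19.3% of tested genes met. For 8 of the 10 genes the WT and APP/PS1 libraries did not overlap, as for 63.5% of tested genes. Some other scalings moved these calls. With library totals 2 of the 10 genes were called higher and 7 lower, and on TPM 1 and 9, where 66.4% and 77.2% of all tested genes were called. FPKM gave the same counts of the 10 genes as library totals.

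In Cx43 cKO against APP/PS1 each of the 10 genes was higher and each passed the test, where 27.3% of tested genes were called higher and 55.0% in either direction. The median log2 change was 0.28 against -0.01 over all tested genes. Csf2rb alone passed the 1.5-fold rule, met by 17.5% of tested genes, and 9 of the 10 did not overlap between the groups, as did not 59.7% of tested genes. The sign held for all 10 genes under every scaling, filter, tool and left-out library tried, while the number called ranged from 8 to 10 and was 8 with length offsets and without APP/PS1 library 2, where Tgfbr1 and Tgfbr2 were lost. Against WT, Cx43 cKO had 7 genes called higher and 1, Csf1r, called lower, where 24.7% and 23.0% of tested genes were called (47.7% in all). Csf1 was the 1 gene past 1.5-fold there, beside 12.8% of tested genes, and 8 genes did not overlap, beside 54.6%. The 3 comparisons share their libraries, so their values are given side by side and not as separate evidence.

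**Figure D1:**
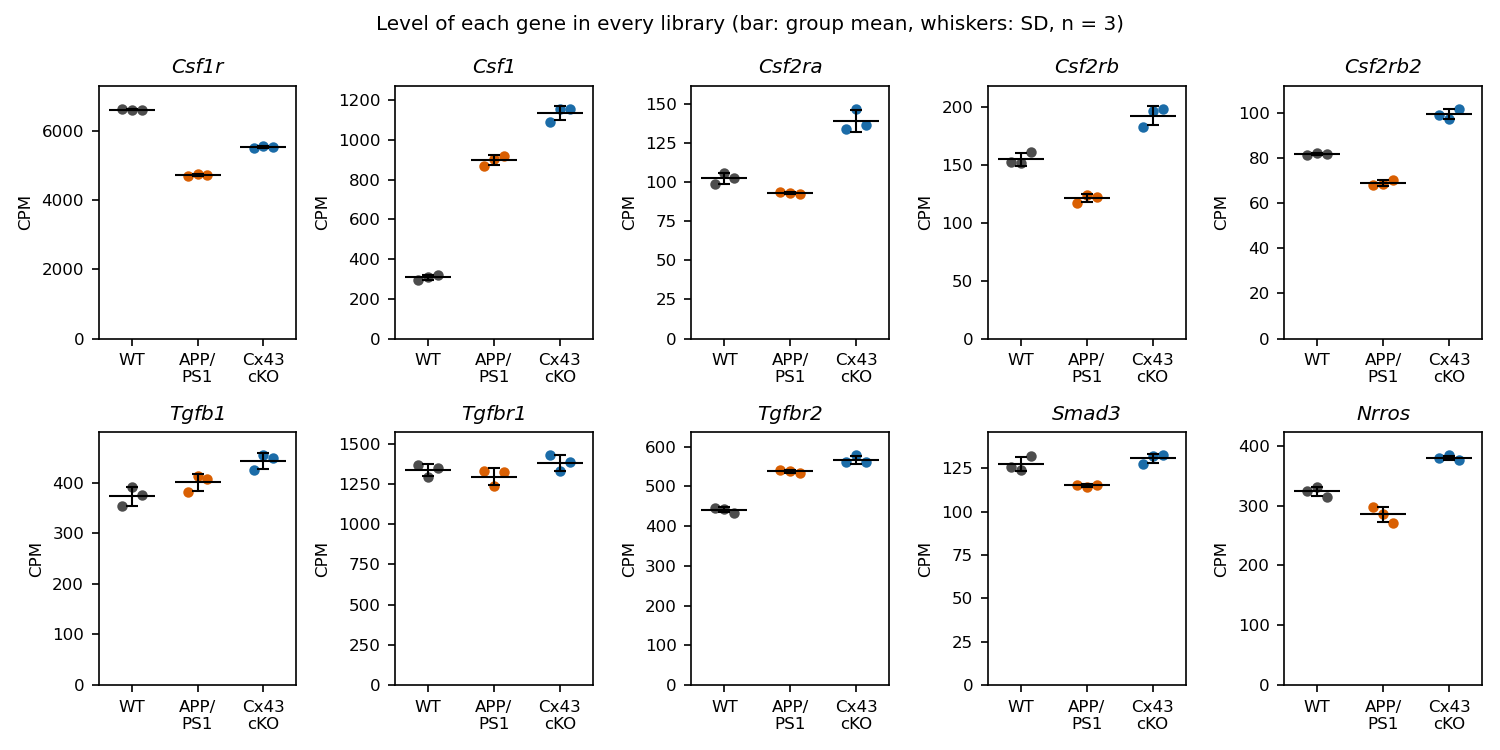
CPM of the 10 genes (y axis, from 0) in the 3 WT, 3 APP/PS1 and 3 Cx43 cKO libraries, shown as points with the group mean (bar) and SD (whiskers). Csf1r was highest in WT, Csf1 lowest in WT, and Csf2ra, Csf2rb and Csf2rb2 were lowest in APP/PS1 and highest in Cx43 cKO.

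Scaling matters for some changes in APP/PS1 against WT, and not for the smallest alone: Tgfbr2 changed by 0.29 with TMM scaling and by -0.10 on TPM. With library totals in place of TMM scaling the median of all genes moved to -0.17 on the log2 scale, and on TPM to -0.35. The share of called genes that were higher moved with it, from 45.7% to 29.5% with library totals and to 14.7% on TPM. In Cx43 cKO against WT that share moved from 51.9% to 30.4% and 19.8%, and in Cx43 cKO against APP/PS1 from 49.6% to 54.8% and 75.3%. Directions below were checked under each of these scalings, and exceptions are named beside the gene.

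Csf1 encodes the ligand of CSF1R. It was at 297, 309.6 and 320.02 CPM for WT libraries 1 to 3, at 869.7, 907 and 921 for APP/PS1, and at 1093, 1157 and 1156 for Cx43 cKO. Every APP/PS1 library was above every WT library, and every Cx43 cKO library above every APP/PS1 library. The rise in APP/PS1 over WT was 2.91-fold, a log2 change of 1.54 (SE 0.033, edgeR adjusted p = 1.16e-23), by far the largest change among the 10 genes. Cx43 cKO was 1.26-fold above APP/PS1 (log2 change 0.34, SE 0.031, edgeR adjusted p = 7.16e-10) and 3.68-fold above WT (log2 change 1.88). By FPKM, which is per kilobase of transcript, Csf1 stood at rank 814 of 18571 genes for WT, 336 for APP/PS1 and 263 for Cx43 cKO.

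Csf1r, the receptor gene and among the strongest transcripts of microglia, moved the other way in APP/PS1. It was at 6641, 6605 and 6610.5 CPM for WT, 4701, 4772 and 4728 for APP/PS1, and 5516, 5565 and 5531 for Cx43 cKO. The groups were far apart, with SDs of 19.5, 35.9 and 25.0 CPM, and Cx43 cKO lay between WT and APP/PS1. Its level was 1.40-fold lower in APP/PS1 than in WT (log2 change -0.48, SE 0.023, edgeR adjusted p = 4.26e-16). Cx43 cKO was above APP/PS1 by a log2 change of 0.23 (edgeR adjusted p = 3.16e-09) and below WT by -0.26 (edgeR adjusted p = 3.75e-10). A fit blocked on replicate number gave larger edgeR adjusted p-values for Csf1r, 4.56e-07 in APP/PS1 against WT and 2.34e-05 in Cx43 cKO against APP/PS1. Csf1r took 0.699% to 0.704% of all counts in WT, 0.453% to 0.459% in APP/PS1 and 0.543% to 0.546% in Cx43 cKO. It was second by count in every WT library and at rank 10 or 11 in APP/PS1. The microglial marker sum given above was highest in APP/PS1, where Csf1r was lowest. Border macrophages also express Csf1r, and 10 of their markers, of which 3 were called higher and 6 lower in APP/PS1 against WT and 2 and 8 in Cx43 cKO against APP/PS1 (26.9% and 32.0%, and 27.3% and 27.7%, of all tested genes), summed to 1042 CPM for WT, 821 for APP/PS1 and 743 for Cx43 cKO; the part of either in Csf1r was not tested.

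Within a library, the FPKM ratio of Csf1 to Csf1r was 0.0423 to 0.0455 for WT, 0.175 to 0.184 for APP/PS1 and 0.188 to 0.198 for Cx43 cKO. The ratio does not depend on scaling between libraries. It differed from WT to APP/PS1 by 2.03 on the log2 scale and from APP/PS1 to Cx43 cKO by 0.11, with no overlap in either case. A two-sided exact permutation test gave p = 0.1 for both, the smallest that 3 against 3 allows (0.15 after Benjamini-Hochberg adjustment over the 18 ratio tests).

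**Figure D2:**
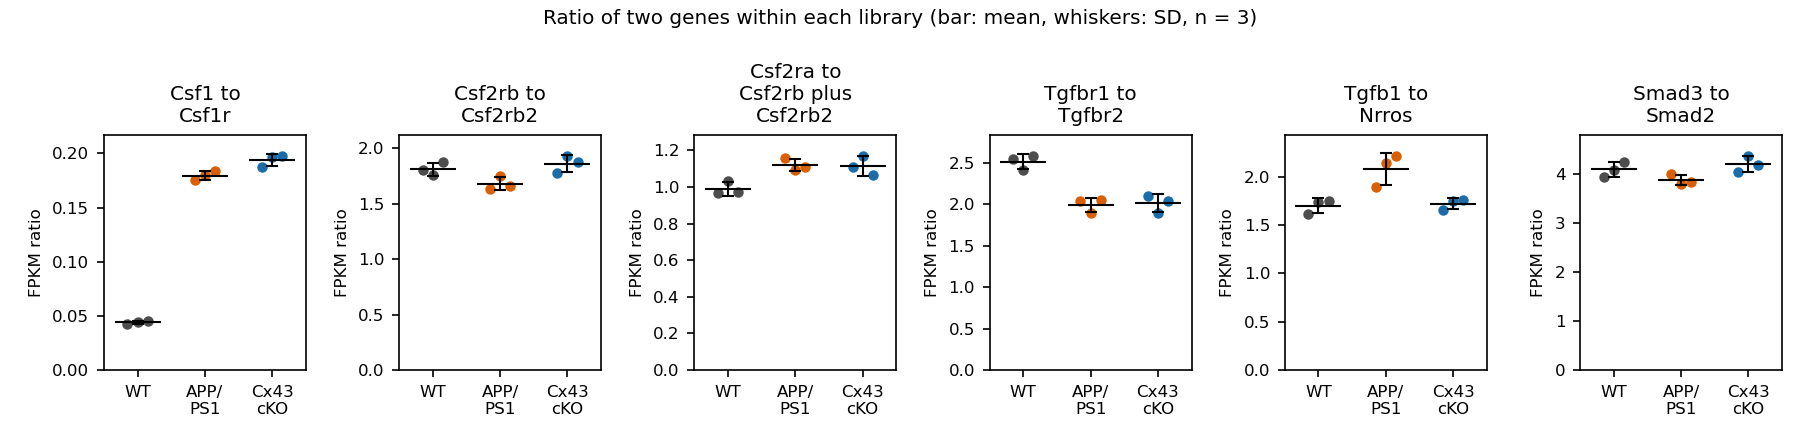
FPKM ratio of paired genes within each library (y axis, from 0), with group mean (bar) and SD (whiskers), n = 3. The ratio of Csf1 to Csf1r was at most 0.0455 in WT and at least 0.175 in both other groups, and that of Tgfb1 to Nrros was highest in APP/PS1.

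Csf2ra and Csf2rb of the GM-CSF receptor and Csf2rb2, the interleukin 3 relative, shared an order, lowest in APP/PS1, intermediate in WT and highest in Cx43 cKO, with no overlap between groups. Csf2ra, the alpha chain, was at 98.7, 106 and 103 CPM for WT, 93.3, 92.8 and 92.0 for APP/PS1, and 133, 147 and 136 for Cx43 cKO. Its change was -0.14 in APP/PS1 against WT (edgeR adjusted p = 0.0033) and 0.58 in Cx43 cKO against APP/PS1 (SE 0.039, edgeR adjusted p = 9.36e-13), on the log2 scale. Cx43 cKO exceeded WT by 0.44 (edgeR adjusted p = 2.69e-10), the largest such excess of the 3 genes.

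Csf2rb, the shared beta chain, was at 152, 151 and 161 CPM for WT, 117, 124 and 122 for APP/PS1, and 183, 196 and 198 for Cx43 cKO. It fell by 0.35 on the log2 scale in APP/PS1 (edgeR adjusted p = 8.16e-09) and from APP/PS1 to Cx43 cKO it rose 1.59-fold (log2 change 0.67, SE 0.038, edgeR adjusted p = 2.37e-14). Csf2rb2, whose reads overlap those of Csf2rb as the sequences above show, was at 81.4, 82.3 and 82.0 CPM for WT, 67.9, 68.5 and 70.2 for APP/PS1, and 99.2, 97.3 and 102 for Cx43 cKO. Its log2 changes were -0.25 and 0.53 (edgeR adjusted p = 2.79e-06 and 3.03e-12). Against WT, Cx43 cKO was above by 0.31 for Csf2rb and 0.28 for Csf2rb2, the latter not called on TPM. The FPKM ratio of Csf2rb to Csf2rb2 was 1.76 to 1.88 for WT, 1.64 to 1.75 for APP/PS1 and 1.78 to 1.93 for Cx43 cKO, so Csf2rb was the more abundant of the pair in each library. Csf2ra against the sum of both beta chains was 0.966 to 1.03 for WT, 1.09 to 1.16 for APP/PS1 and 1.06 to 1.17 for Cx43 cKO, by FPKM.

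Neutrophils carry GM-CSF receptors, and the summed neutrophil markers had the group order of these 3 genes. All 12 were called lower in APP/PS1 than in WT and all 12 higher in Cx43 cKO relative to APP/PS1, beside 32.0% and 27.3% of all tested genes. Between Cx43 cKO and WT, 9 were called higher and 2 lower, beside 24.7% and 23.0% of all tested genes. The 2 were the granule enzyme genes Elane (-0.79) and Mpo (-0.69). From APP/PS1 to Cx43 cKO their median log2 change was 2.85, and the changes of Csf2ra, Csf2rb and Csf2rb2 were 0.53 to 0.67. Monocyte markers, which blood-derived cells share, were called lower for 8 of 9 and higher for 7 of 9 in the same comparisons. The part of these cells in the levels of Csf2ra, Csf2rb and Csf2rb2 was not tested. Csf3r, the G-CSF receptor and itself in the neutrophil list, changed by -0.34 in APP/PS1 against WT and by 0.37 in Cx43 cKO against APP/PS1, and was not called between Cx43 cKO and WT (0.03).

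**Figure D3:**
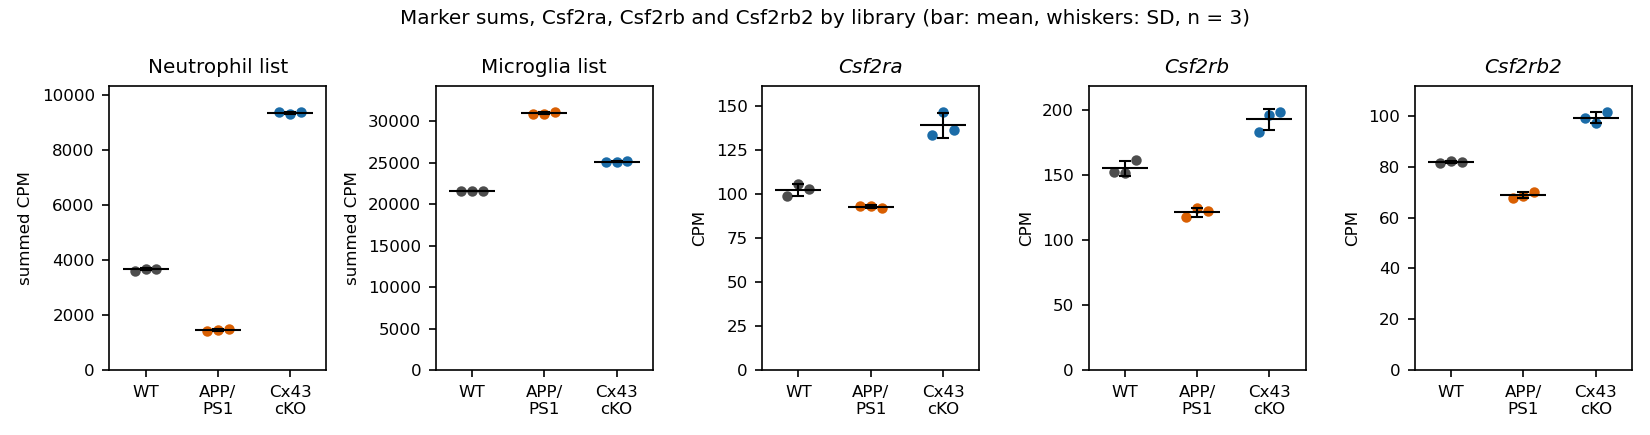
Summed CPM of 12 neutrophil and 14 microglial markers, and CPM of Csf2ra, Csf2rb and Csf2rb2 (y axes, from 0) in each library, with group mean (bar) and SD (whiskers), n = 3. Neutrophil markers (1423 to 1493 CPM in APP/PS1, 9293 to 9382 in Cx43 cKO) had the same group order as the receptor genes, and the microglial sum was highest in APP/PS1.

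Tgfb1, the TGF-beta ligand made by microglia, was at 354, 391 and 375 CPM for WT, 382, 413 and 407 for APP/PS1, and 424, 454 and 448 for Cx43 cKO. WT and APP/PS1 overlapped, and the Cx43 cKO libraries were above all others. Its change from WT to APP/PS1, 0.10 on the log2 scale, passed the edgeR test (adjusted p = 0.0253), but its sign reversed with library totals (-0.04), on FPKM (-0.03) and on TPM (-0.29, called lower). The call was also lost when WT library 1 or 3 or APP/PS1 library 2 or 3 was left out (log2 changes 0.06 to 0.14 over all left-out libraries). Cx43 cKO was above APP/PS1 by 0.14 (edgeR adjusted p = 0.00316) and above WT by 0.24 (edgeR adjusted p = 1.51e-05, not called on TPM).

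Nrros, which anchors latent TGF-beta1 on microglia, was at 324, 332 and 315 CPM for WT, 298, 286 and 272 for APP/PS1, and 379, 384 and 376 for Cx43 cKO. The groups did not overlap. Its log2 change was -0.18 in APP/PS1 against WT (edgeR adjusted p = 2.81e-05). From APP/PS1 to Cx43 cKO it rose by 0.41 (SE 0.033, edgeR adjusted p = 2.64e-11), the largest change of the 5 TGF-beta genes in that comparison, and stood above WT by 0.23 (edgeR adjusted p = 1.12e-06, not called on TPM). The ratio of Tgfb1 to Nrros by FPKM was 1.61 to 1.75 for WT, 1.90 to 2.22 for APP/PS1 and 1.65 to 1.76 for Cx43 cKO. APP/PS1 thus lay above both other groups without overlap (two-sided exact permutation p = 0.1, adjusted 0.15), by 0.29 over WT on the log2 scale.

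The receptor genes behaved unequally. Tgfbr2, the type II receptor, was at 446, 443 and 433 CPM for WT, 542, 537 and 534 for APP/PS1, and 561, 578 and 561 for Cx43 cKO. It rose in APP/PS1 by 0.29 (SE 0.027, edgeR adjusted p = 8.98e-10), a sign that turned on TPM (-0.10, called lower), where the median of all genes was lower still. The further 0.08 in Cx43 cKO over APP/PS1 passed narrowly (edgeR adjusted p = 0.0209) and was not called with length offsets (0.02) or without APP/PS1 library 2 or 3 or Cx43 cKO library 2 (0.06 to 0.08 over all left-out libraries).

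Tgfbr1, the type I receptor, was at 1368, 1293 and 1350.4 CPM for WT, 1329, 1235 and 1322 for APP/PS1, and 1427, 1327 and 1383 for Cx43 cKO. Its groups overlapped in every comparison, and library 2 was the lowest of each group. The log2 change was -0.05 in APP/PS1 against WT (edgeR adjusted p = 0.229), called lower with library totals (-0.18) and above 0 with length offsets (0.06). Each same-numbered pair of libraries was lower in APP/PS1, and a fit blocked on replicate number called the change (-0.05, edgeR adjusted p = 1.3e-06). Length offsets together with the block called it in the other direction (0.06, edgeR adjusted p = 5.16e-09). A value of 0.09 in Cx43 cKO against APP/PS1 was called (edgeR adjusted p = 0.0199), though not with length offsets (0.05), nor without APP/PS1 library 2 or Cx43 cKO library 1 or 3 (0.05 to 0.12 over all left-out libraries), and a two-sided exact permutation test of the CPM values, which ignores the pairs, gave p = 0.2. All 3 same-numbered pairs were higher in Cx43 cKO, and the blocked fit called the change with length offsets (0.05) and without them (0.09). Cx43 cKO differed from WT by 0.04 (edgeR adjusted p = 0.267, called when blocked and with length offsets), a sign that turned with library totals (-0.06), on FPKM (-0.06) and on TPM (-0.15, called lower). The FPKM ratio of Tgfbr1 to Tgfbr2 was 2.41 to 2.58 for WT, 1.90 to 2.05 for APP/PS1 and 1.90 to 2.10 for Cx43 cKO, so WT stood apart from both other groups.

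Smad3, which carries the signal of the activated receptors, was at 126, 124 and 132 CPM for WT, 116, 114 and 116 for APP/PS1, and 128, 132 and 132 for Cx43 cKO. APP/PS1 was below both other groups, and WT and Cx43 cKO overlapped. The log2 change was -0.15 against WT (edgeR adjusted p = 0.000733, not called with length offsets) and 0.18 from APP/PS1 to Cx43 cKO (edgeR adjusted p = 6.58e-05). Between Cx43 cKO and WT it was 0.04 (edgeR adjusted p = 0.389), with the opposite sign under library totals (-0.07), on FPKM (-0.06) and on TPM (-0.15, called lower), and called higher with length offsets (0.09). Smad2, the other receptor-activated Smad of this branch, was not called in any comparison, and the FPKM ratio of Smad3 to Smad2 was 3.95 to 4.24, 3.80 to 3.99 and 4.04 to 4.36 in WT, APP/PS1 and Cx43 cKO.

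**Figure D4:**
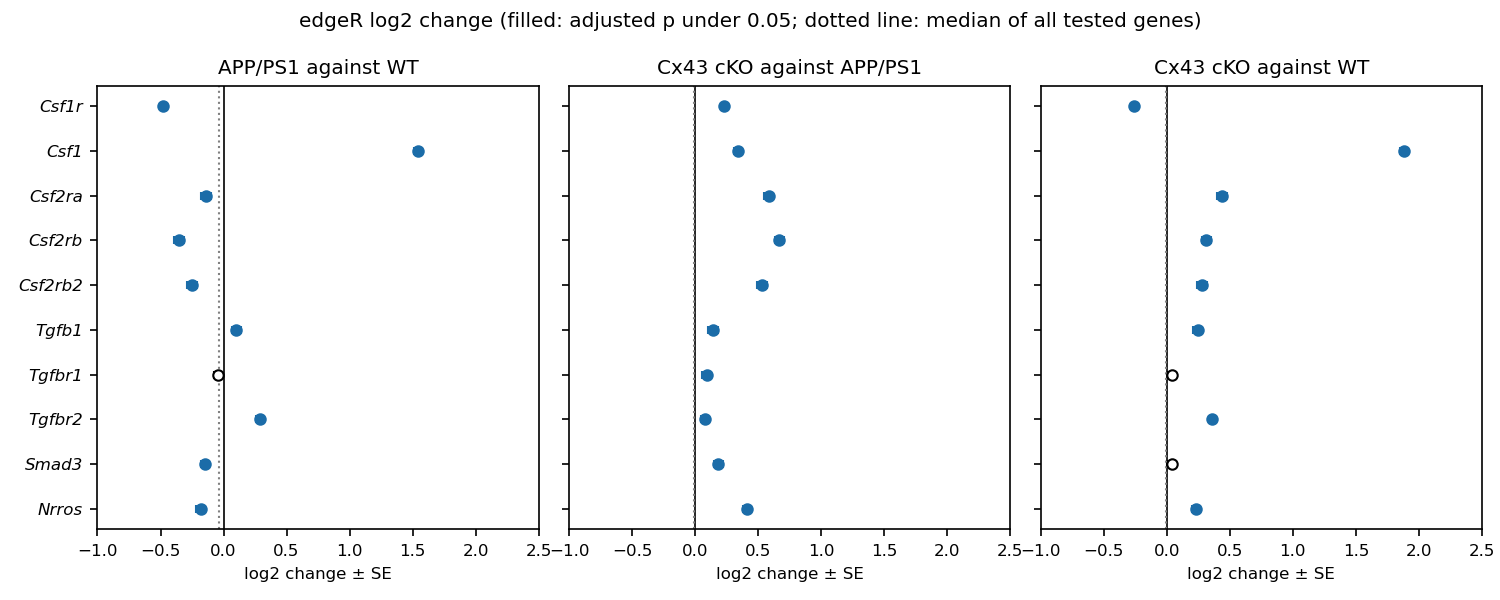
Log2 change with SE (x axis) of the 10 genes in the 3 comparisons, from edgeR, with filled points for an adjusted p under 0.05 and a dotted line at the median of all tested genes. All 10 points lie to the right of 0 in Cx43 cKO against APP/PS1, from 0.08 for Tgfbr2 to 0.67 for Csf2rb.

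Set side by side by FPKM, the order of the genes changed between groups. In WT it ran from Csf1r (1831 ± 7.54 FPKM, SD, n = 3) through Tgfbr1 (249.7), Tgfb1 (186), Nrros (109), Tgfbr2 (99.4), Csf1 (80.5), Csf2ra (53.4), Csf2rb (34.8) and Smad3 (27.9) to Csf2rb2 (19.2), and no neighbours overlapped. Csf1 moved from the sixth place in WT to the third in APP/PS1, at 214 ± 5.40 FPKM, where it overlapped Tgfbr1 at 220.04 ± 9.13. In Cx43 cKO it was the second, at 276 ± 7.88 FPKM, above Tgfbr1 at 239 ± 9.26 without overlap. Nrros and Tgfbr2 overlapped in Cx43 cKO (119 FPKM each), whereas Nrros was above Tgfbr2 in WT and below it in APP/PS1 (87.2 against 110.3).

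Other ligands and receptors of the colony-stimulating factor families were mostly scarce. Il34, the other ligand of CSF1R, was at 7.54 to 9.45 CPM for WT, 4.37 to 6.68 for APP/PS1 and 4.17 to 5.80 for Cx43 cKO, and was lower than WT in both (log2 changes -0.61 and -0.81, edgeR adjusted p = 0.000676 and 6.52e-05). Csf2, which encodes GM-CSF, did not exceed 1.13 CPM in any library and was not called. Of the 10 genes of this list that were tested, 1 was called higher and 4 lower in APP/PS1 against WT, 3 and 1 in Cx43 cKO against APP/PS1, and 1 and 2 in Cx43 cKO against WT, with medians of -0.51, 0.18 and -0.19. The called shares were 50%, 40% and 30%, beside 59.0%, 55.0% and 47.7% of all tested genes. In the first comparison length offsets gave 80% beside 54.4%, and TPM 90% beside 77.2%, and in Cx43 cKO against WT TPM gave 70% beside 61.6%. Il3ra, the interleukin 3 receptor alpha chain that pairs with Csf2rb and Csf2rb2, rose by 1.29 in APP/PS1 and differed from WT by 1.35 in Cx43 cKO. Kit, the stem cell factor receptor, fell by 1.20 in APP/PS1 and was 1.21 higher in Cx43 cKO, relative to APP/PS1, and Flt3, a receptor of dendritic cell precursors, changed by -0.90 and 0.69. Kitl, the stem cell factor gene, was lower in Cx43 cKO than in WT (-0.29).

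Downstream of these receptors, 18 of 22 signalling genes fell in APP/PS1 against WT and 1 rose (median log2 change -0.23), and 17 rose with 1 falling in Cx43 cKO against APP/PS1 (median 0.24). Of all tested genes, 32.0% were called lower and 26.9% higher in the first comparison (median -0.04), and 27.3% higher and 27.7% lower in the next (median -0.01). Under the other scalings, the length offsets and TPM, 16 to 21 fell and 17 to 20 rose in those comparisons, with 1 in the opposite direction each time. The exception was Tyrobp, the adaptor DAP12 through which microglial receptors such as TREM2 signal, which was at 460 to 497 CPM for WT, 1799 to 2043 for APP/PS1 and 1008 to 1110 for Cx43 cKO. Pik3cd, a lipid kinase subunit of leukocytes, changed by -0.65 in APP/PS1, and Socs3, a feedback inhibitor of cytokine receptors, by -0.61. From APP/PS1 to Cx43 cKO, Socs2, a target of STAT5, rose by 0.68 and Ets2, a transcription factor, by 0.49. Stat5b, which relays GM-CSF receptor signals, was at 50 to 53 CPM in APP/PS1 and at 68 to 76 in the other groups. Between Cx43 cKO and WT the list had 6 genes called higher and 4 lower (45.5%, beside 47.7% of all tested genes), and with library totals 6 and 12 (81.8%, beside 54.8%). Many of these genes are also expressed by neutrophils and monocytes, and the part of those cells was not tested.

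**Figure D5:**
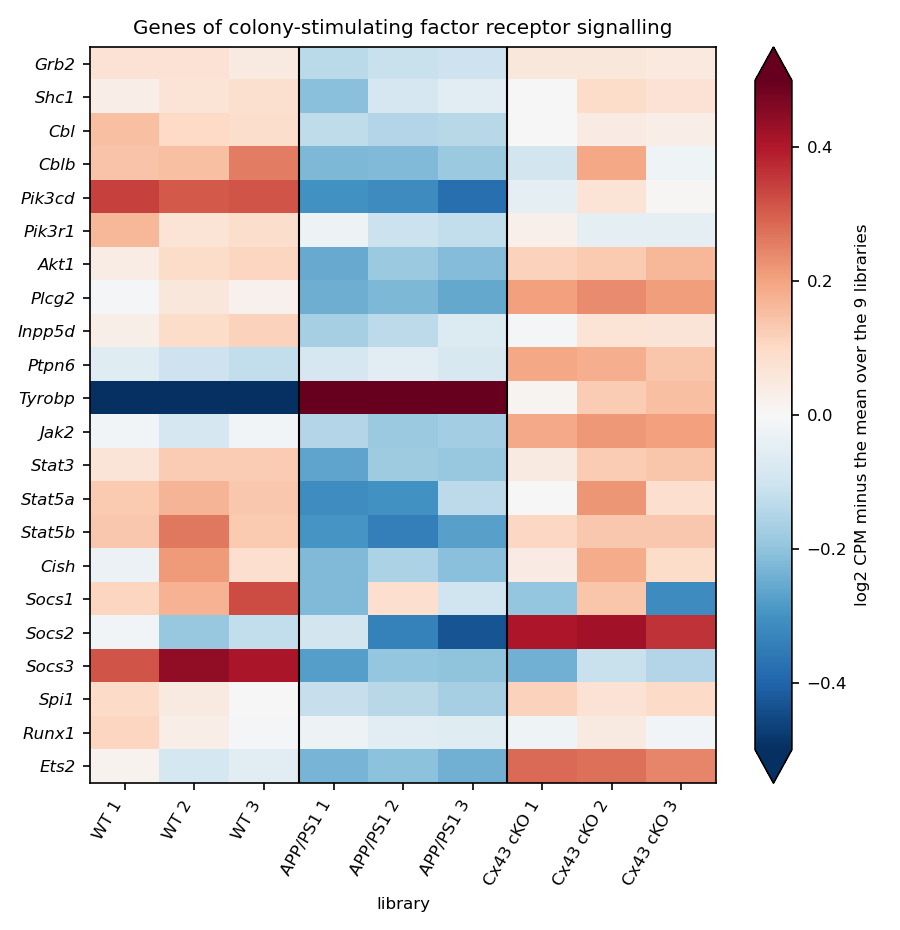
Log2 CPM minus the mean over the 9 libraries (colour) for 22 genes of colony-stimulating factor receptor signalling (rows) in each library (columns), with values beyond 0.5 in either direction drawn in the end colour. Most rows are lowest in the APP/PS1 libraries, and Tyrobp is highest there.

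A list of 11 tested genes that GM-CSF is known to induce gave 4 called higher and 6 lower in APP/PS1 against WT, 6 and 2 in Cx43 cKO against APP/PS1, and 6 and 4 in Cx43 cKO against WT, or 90.9%, 72.7% and 90.9% called beside 59.0%, 55.0% and 47.7% of all tested genes. Its strongest members did not share a direction. Dcstamp, a cell fusion receptor, and Itgax, which encodes CD11c, rose in APP/PS1 by 4.88 and 3.09 on the log2 scale, while Il1r2, a decoy receptor for interleukin 1, changed by -1.72. In Cx43 cKO against APP/PS1, Il1r2 rose by 2.24 and Il1rn, the interleukin 1 receptor antagonist, by 2.04, and Dcstamp fell by 1.17. Il1r2 and Il1rn are also strong neutrophil transcripts. All 12 neutrophil markers were higher in that comparison and lower in APP/PS1 against WT, where Il1rn was higher (0.34, but -0.04 on TPM), and the part of neutrophils was not tested.

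Genes that store and activate TGF-beta were called lower for 9 of 15 tested and higher for 1 when APP/PS1 was set against WT, with a median of -0.30 (8 lower and 2 higher with DESeq2 size factors, 13 lower and none higher on TPM). That is 66.7% of the list called, beside 59.0% of all tested genes. Thbs1, thrombospondin 1, an activator of latent TGF-beta, was at 420 to 425 CPM for WT, 92 to 96 for APP/PS1 and 338 to 347 for Cx43 cKO. Mmp9, a protease that neutrophils store in granules, was at 97 to 99 CPM for WT, 16 to 18 for APP/PS1 and 311 to 330 for Cx43 cKO. Tgfb3, another TGF-beta ligand, changed by -0.73 in APP/PS1. Cx43 cKO had 5 of these genes higher and 4 lower than APP/PS1 (60% called, beside 55.0%), and 3 higher and 8 lower than WT (73.3%, beside 47.7%). From APP/PS1 to Cx43 cKO, Furin, the protease that cleaves the TGF-beta precursor, rose by 0.53. Lrrc32, the relative of Nrros that anchors latent TGF-beta on other cells, was lower in Cx43 cKO than in WT by a log2 change of -1.16, and the latent binding protein gene Ltbp1 by -0.99. Lrrc32 is also a gene of vessel cells, and vessel markers summed to 1069, 964 and 753 CPM in WT, APP/PS1 and Cx43 cKO, and their part was not tested.

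Among 28 receptor, Smad and regulator genes of the wider family, 6 were called higher and 12 lower in APP/PS1 against WT, 7 and 4 in Cx43 cKO against APP/PS1, and 5 and 6 in Cx43 cKO against WT. The called shares of 64.3%, 39.3% and 39.3% stood beside 59.0%, 55.0% and 47.7% of all tested genes. In Cx43 cKO against WT the blocked fit gave 60.7% beside 54% and library totals 67.9% beside 54.8%, and on TPM Cx43 cKO against APP/PS1 had 71.4% beside 61.8%. With library totals these counts were 4 and 20, 8 and 3, and 5 and 14, and on TPM 1 and 24, 20 and 0, and 4 and 20. The activin and ALK1 receptor genes Acvr1b and Acvrl1 rose by 0.84 and 0.82 in Cx43 cKO over APP/PS1. Acvr2b was lower in APP/PS1 than in WT (-0.62, not called with length offsets and the replicate number as a block) and lower again in Cx43 cKO (-0.46, edgeR adjusted p = 0.0343). That call was lost in the fit blocked on replicate number (-0.46, edgeR adjusted p = 0.128) and without APP/PS1 library 2 or 3, Cx43 cKO library 1 or WT library 1. Bambi, a decoy receptor, rose in APP/PS1 by 0.75, and Pmepa1, an inhibitor that TGF-beta induces, exceeded WT by 0.52 in Cx43 cKO.

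Of 16 genes known as Smad targets, 6 were called higher and 4 lower in APP/PS1 against WT and the same numbers in Cx43 cKO against APP/PS1. Against WT, Cx43 cKO had 4 higher and 3 lower (4 and 8 with library totals, 4 and 10 on TPM). In APP/PS1 against WT the balance turned to 4 higher and 6 lower with library totals and to 3 and 10 on TPM. The fit blocked on replicate number gave 6 each way in that comparison (75%, beside 63.4% of all tested genes). The called shares were 62.5%, 62.5% and 43.8%, beside 59.0%, 55.0% and 47.7% of all tested genes, and the last was 75% both in the blocked fit (54% of all genes) and with library totals (54.8%). Cdkn1a, a cell cycle inhibitor, and Bhlhe40, a transcription factor, stood above WT by 0.87 and 0.77 in Cx43 cKO. Tgfbi, a secreted matrix protein, changed by -0.85 in APP/PS1 and by 0.84 from there to Cx43 cKO. Monocytes also express Tgfbi, and their markers were lower for 8 of 9 and then higher for 7 of 9, with medians of -1.37 and 1.39; their part was not tested. Id2 rose in APP/PS1 by 0.51, and Id1, a target of the BMP branch, fell by 0.73 from APP/PS1 to Cx43 cKO.

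Microglial genes that depend on TGF-beta, 20 in number, were called higher for 9 and lower for 8 in APP/PS1, 4 and 7 in Cx43 cKO against APP/PS1, and 9 each way in Cx43 cKO against WT. The called shares were 85%, 55% and 90%, beside 59.0%, 55.0% and 47.7% of all tested genes. In the fit blocked on replicate number the counts in Cx43 cKO against APP/PS1 were 8 and 9 (85% called, beside 60.2% of all tested genes), and length offsets gave 80% beside 52.1%. On TPM the numbers were 6 and 13, 13 and 6, and 6 and 11 (95%, 95% and 85%, beside 77.2%, 61.8% and 61.6%). Fcrls, an Fc receptor-like gene of mouse microglia, was at 191 to 198 CPM for WT, 1568 to 1595 for APP/PS1 and 1239 to 1253 for Cx43 cKO. Gpr34, a receptor for lysophosphatidylserine, rose in APP/PS1 by 1.24 and fell by 0.50 from there to Cx43 cKO, and Olfml3 rose by 0.59 in APP/PS1. The purinergic receptor gene P2ry12 fell by 0.38 from APP/PS1 to Cx43 cKO. Cx3cr1, which the list also holds, had log2 changes of -0.88 in Cx43 cKO against APP/PS1 and -0.90 against WT. Its promoter drives the recombinase, so its difference cannot be told apart from the recombinase allele. The list therefore had no common direction, and it shares 10 of its genes with the microglial marker list.

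The genes whose pattern over the 9 libraries was nearest to that of a gene of interest were found among 9161 genes with a mean of at least 10 CPM, by the root mean square difference of centred log2 CPM. For Csf1r these were Wdfy2 (0.026), Trib1 (0.028) and Trpm2 (0.029). For Csf1 they included Nceh1 (0.092) and Capg (0.10), and Nceh1 went from 19.1 CPM for WT to 57.5 for APP/PS1 and 71.0 for Cx43 cKO. Senp6 (0.018), Mbnl1 (0.022) and Fndc3a (0.022) were nearest to Tgfbr1, and Sgpl1 (0.016), Ap5z1 (0.016) and Etv6 (0.025) to Smad3.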

How the data were processed

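The deposited table gave 4 values for each gene and library. Per the file headers, the authors' estimated counts carry decimals and are unscaled, the authors' FPKM and TPM are per kilobase, and the authors' normalised counts are a signal (each rounded-up estimated count times a constant of its library) that was not used here. The submitters' processing notes name HISAT, Bowtie2, DESeq2 and GRCm38.p6, without roles, versions or annotation. Groups follow the labelled genotype.

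Estimated counts were rounded and tested by quasi-likelihood in edgeR 4.0.16 (R 4.3.3), after filterByExpr and TMM scaling, in 1 fit over all 9 libraries. P-values were adjusted by Benjamini-Hochberg over 14696 genes, the threshold being 0.05, and CPM uses TMM-scaled library sizes. FPKM served for ratios and for levels between genes. Single values were compared with exact permutation tests (scipy 1.17.1). The alternatives were other scalings, DESeq2 1.42.0, limma 3.58.1 (voom, and trend on log2 of FPKM plus 1 or 0.1 and of TPM plus 1), other filters, an adjusted p of 0.01, only the groups compared, the replicate number as a block, offsets over 10 bins of gene length, and each library left out. The labels do not tie replicate numbers to animals or batches. Deviations from the group means (10808 genes) correlated between same-numbered libraries at 0.164 to 0.308 for WT and APP/PS1, 0.118 to 0.270 for APP/PS1 and Cx43 cKO, and 0.079 to 0.211 for WT and Cx43 cKO, and between other libraries at -0.310 to 0.133. By a rule that each pair exceed 0.1, the numbers were taken to pair libraries in the first 2 comparisons. The rule is loose: APP/PS1 library 3 and Cx43 cKO library 2, at 0.133, also exceeded 0.1, and lay above APP/PS1 library 3 and Cx43 cKO library 3 (0.118). Printed edgeR p-values are from the unblocked fit unless stated. The blocked value is given where it changes a call of the 10 genes, and for the lists only in part.

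The members and lists were chosen with earlier results of these data known. Besides the 10 members, up to 3 called genes per list and comparison were named, those with the largest change among genes averaging 1 CPM or more whose groups did not overlap, with the 3 genes nearest in pattern to each of Csf1r, Csf1, Tgfbr1 and Smad3 and the checks Gja1, Cx3cr1 and Ddx3y. Csf2, Stat5b, Smad2, Hmgxb3, Elane, Mpo, Nr4a1 and 5 astrocyte markers were named beyond this rule, after their values were seen. Some genes that the rule names are not reported here. On simulated counts at a coefficient of variation of 3%, the edgeR step recovered 68 of 100 genes changed 1.25-fold and 100 of 100 changed 2-fold, with 5.62% false calls. At 10% it recovered 12 of 100 and 99 of 100, with 4.31% false calls. The simulation changed 100 genes by each fold, whereas 59.0% of tested genes were called in APP/PS1 against WT, so it does not test the scaling.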

Additional observations from a re-analysis of the deposited data

How the results depend on the processing

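Directions and calls held for most members under the alternatives: of 660 values, 617 kept both. Called genes over the table stayed within 1.5 times the original number under each alternative. For Tgfb1 in APP/PS1 against WT the log2 change was -0.0354 with library totals, -0.0348 and -0.0349 on FPKM plus 1 and plus 0.1, -0.2893 on TPM (called lower), and 0.0645 to 0.1371 with a library left out. Tgfbr1 in that comparison was called lower with library totals (-0.1832), on FPKM (-0.1823 and -0.183) and on TPM (-0.4372), was above 0 and not called with length offsets (0.0581), and was called higher with length offsets and the block (0.0578). Tgfbr2 turned on TPM (-0.1041, called lower), and Smad3 lost its call with length offsets (-0.039, with and without the block). In Cx43 cKO against APP/PS1 length offsets ended the calls of Tgfbr1 (0.0456, though called with the block as well, at 0.0458) and Tgfbr2 (0.0206, and 0.0205 with the block), as did some left-out libraries (0.0535 to 0.1159 for Tgfbr1, 0.0598 to 0.0831 for Tgfbr2). In Cx43 cKO against WT, calls were lost on TPM for Csf2rb2 (0.0747), Tgfb1 (0.0466) and Nrros (0.0321). There Tgfbr1 was -0.0633 with library totals, -0.0639 and -0.0642 on FPKM and -0.154 on TPM, and was called with length offsets (0.1037, and 0.1036 with the block). Smad3 was -0.07, -0.0567, -0.0586 and -0.1463 under the same settings, and was called with length offsets (0.0911, with and without the block). The cause was not tested, except that library totals, FPKM and TPM also moved the median of all genes. Ratios whose sign turned with a library left out were already overlapping: Csf2ra to both beta chains (-0.0431 to 0.0257) and Tgfbr1 to Tgfbr2 (-0.0214 to 0.0553) in Cx43 cKO against APP/PS1, and Tgfb1 to Nrros (-0.024 to 0.0422) in Cx43 cKO against WT.

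With the replicate number as a block, 9319, 8851 and 7934 genes were called in place of 8670, 8085 and 7010, and Tgfbr1 was called in APP/PS1 against WT (-0.0459) and in Cx43 cKO against WT (0.0442), where 1 same-numbered pair correlated under 0.1. No other call of the 10 genes changed with the block alone. For the lists, the block gave 17 called TGF-beta-dependent microglial genes in Cx43 cKO against APP/PS1 (main 11), or 85% beside 60.2% of all tested genes. In Cx43 cKO against WT it gave 17 receptor and Smad genes (main 11) and 12 Smad targets (main 7), or 60.7% and 75% beside 54%. Library totals gave 18 called signalling genes, 19 receptor and Smad genes and 12 Smad targets there (81.8%, 67.9% and 75%, beside 54.8%). Length offsets gave 8 called colony-stimulating factor family genes in APP/PS1 against WT (80% beside 54.4%), and 9 with the block (90% beside 59.6%). Length offsets with the block gave 17 TGF-beta-dependent genes in Cx43 cKO against APP/PS1 (85% beside 57.8%). In Cx43 cKO against WT they gave 19 receptor and Smad genes and 12 Smad targets (67.9% and 75%, beside 52.6%).

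Genes near 1 CPM rest on few counts. The spread between libraries was 3.14%, and 0.988% with the block.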
